A study of Mus musculus with 12 samples.

Results

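Gene expression was compared between 9 mouse brain tumours driven by YAP1 fusion genes and 3 samples of normal cortex, which together are all 12 of the 12 RNA-seq libraries of the series. The tumours followed injection into the brain of RCAS, an avian retroviral vector, carrying YAP1-TFE3, YAP1-FAM118B or YAP1-MAMLD1-dR3R1, with 3 libraries of whole tumour tissue for each. The labels do not explain the suffix dR3R1. The naive group, also 3 libraries, came from cortex that received no injection, so injection and tumour cannot be told apart. The 3 fusions were given equal weight: the common contrast is the mean of the 3 fusion group means minus the naive mean. A gene is called shared when each of the 3 fusions, tested singly against naive, gave a call of the same sign, and these 3 tests share the naive libraries. Strain, age, the cell type that carried the receptor for the virus and the promoter that drove the fusion are, in the sources used here, not given. The tissue field of the naive samples reads brain tumour whereas their source field reads normal cortex, and the extraction protocol speaks of cultured cells whereas the design text speaks of frozen tumours. Whether each library of a group is a separate animal is not stated, and the p-values therefore measure only how far these samples spread, which may be technical.

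YAP1 is a transcriptional co-activator at the end of the Hippo pathway. Kinases of this pathway phosphorylate it and hold it in the cytoplasm, and when they are inactive it enters the nucleus, binds TEAD transcription factors and raises genes of growth, cell adhesion and matrix. Gene fusions that join the start of YAP1 to MAMLD1 or FAM118B occur in ependymoma, a brain tumour, and the fusion with TFE3 occurs in epithelioid haemangioendothelioma, a vascular tumour.

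The libraries held 19850220 to 24760814 counts. Values are CPM, the count of a gene relative to the total of its library, scaled with TMM factors, in which 3 counts in 1 library equal 0.117 to 0.145 CPM, a limit that covers counting error and nothing else. No 2 libraries of a group agreed within sampling noise, with a chi-square of 20 to 193 per degree of freedom between replicates. Both naive replicate 2 and YAP1-FAM118B replicate 2 held Xist (25.6 and 162 CPM) together with the Y-linked gene Ddx3y (49.3 and 29.9 CPM). Yap1 itself (chr9:7931999-8004638, GRCm38.p6) measured 24.3, 23.6 and 22.3 CPM in naive, 122, 63.4 and 82.0 CPM in YAP1-MAMLD1-dR3R1, 72.9, 58.5 and 98.8 CPM in YAP1-FAM118B and 119, 109 and 79.7 CPM in YAP1-TFE3 tumours. All 9 tumour libraries were above all naive libraries, with a common log2 fold change of 1.93 ± 0.24 (SE, edgeR adjusted p = 8.65e-05), and reads of an introduced fusion and of the mouse gene cannot be told apart in these counts.

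Of 16364 genes tested, 5904 were higher in the mean of the 3 fusions (36.1%) and 5006 were lower (30.6%), together 66.7%, by edgeR's quasi-likelihood test at an adjusted p of 0.05. Higher genes were carried by more fusions than lower genes. Of the higher ones, 3046 (51.6%) also rose in every fusion, which is 18.6% of all genes tested, 1830 in 2 fusions, 1015 in 1 fusion and 13 in none. Of the lower ones, 993 (19.8%) also fell in every fusion, which is 6.07% of all genes tested, 2749 in 2 fusions, 1207 in 1 and 57 in none. The fusion without a call was most often YAP1-FAM118B: it was the missing one for 1520 of the 1830 higher genes and for 2485 of the 2749 lower genes carried by 2 fusions. A call in 1 fusion alone came mostly from YAP1-TFE3, with 704 of 1015 higher and 780 of 1207 lower genes. In 30 higher and 25 lower genes a fusion was called in the direction opposite to the mean.

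The count of shared lower genes depended on single libraries. It was lowest without 1 library of the control or of YAP1-FAM118B, the fusion with the smallest changes. This count was 285 without YAP1-FAM118B replicate 3, 302 without YAP1-FAM118B replicate 1 and 296 without naive replicate 1. It was 547 without naive replicate 2, 569 without naive replicate 3 and 629 without YAP1-MAMLD1-dR3R1 replicate 2. The count rose to 1279 without YAP1-FAM118B replicate 2, the tumour library whose log2 CPM correlated most with the naive libraries (0.893 to 0.909). The count of shared higher genes stayed between 2409 and 3147 when any of the 12 libraries was left out.

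**Figure D1:**
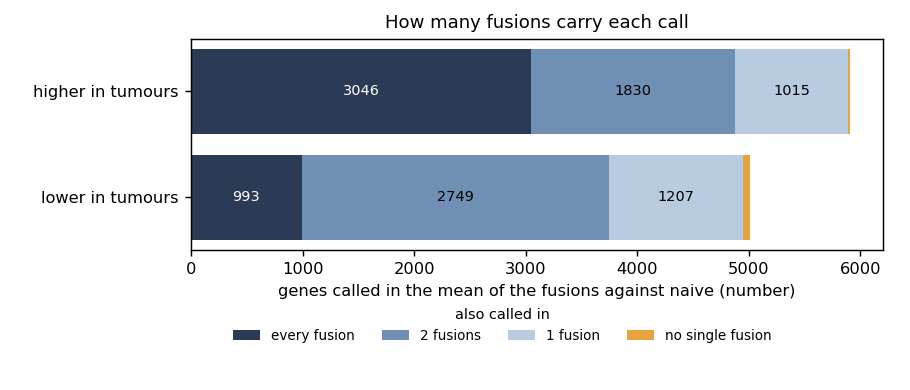
Number of genes called in the mean of the fusions against naive, split by how many of the 3 fusions were called in the same direction on their own. The part called in every fusion is 3046 of 5904 higher genes and 993 of 5006 lower genes.

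Shared changes were large upward and modest downward. The median log2 fold change of the shared higher genes was 2.33 in the common contrast, with 2.48 for YAP1-MAMLD1-dR3R1, 1.81 for YAP1-FAM118B and 2.57 for YAP1-TFE3, against a median of 0.09 over all genes tested. At least 2-fold in every fusion were 2144 of these genes, at least 4-fold 1325 and at least 16-fold 437. The median of the shared lower genes was -1.19, with -1.38, -0.74 and -1.45 in the same order, and 250 of them were at least 2-fold lower in every fusion. YAP1-FAM118B had the smallest change of the 3 fusions in 2098 of the 3046 higher and 823 of the 993 lower genes. The 9 tumour libraries did not overlap with the 3 naive libraries in 2985 of the shared higher and 977 of the shared lower genes, where over all genes tested 24.2% had every tumour library above and 17.9% every tumour library below naive. A test over the 3 tumour groups called 61.8% of all genes tested, and among shared genes it called 2049 higher (67.3%) and 721 lower ones (72.6%). The 3 fusion log2 fold changes lay within 0.5 of each other in 438 shared higher (14.4%) and 231 shared lower genes (23.3%).

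**Figure D2:**
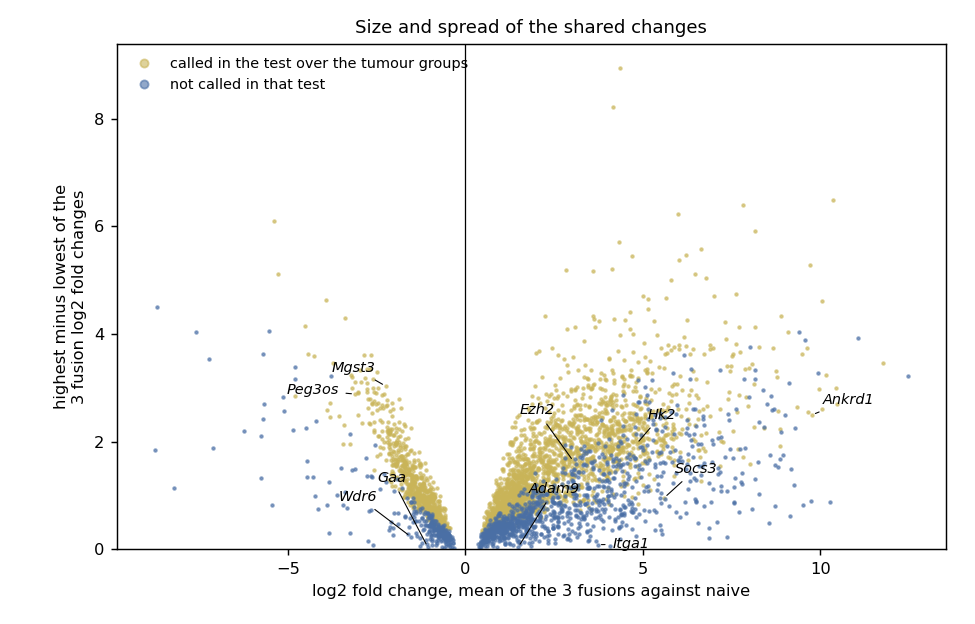
Each point is a shared gene, with its common log2 fold change on the horizontal axis and the distance between its highest and lowest fusion log2 fold change on the vertical axis. Gold points were called in the test over the tumour groups and blue points were not. Adam9, Itga1, Gaa and Wdr6 lie near 0 on the vertical axis, and Mgst3 and Peg3os lie near 3.

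The 10 shared higher genes with the smallest p-values were Anxa3, Ddx39, Dlgap5, Ezh2, Grn, Hk2, Hpgds, Prr11, Sbno2 and Socs3. They were chosen by that p among genes of at least 10 CPM whose tumour and naive libraries did not overlap. Socs3, the feedback inhibitor of JAK-STAT cytokine signalling, measured 3.20, 3.48 and 2.24 CPM in naive, 195, 201 and 207 CPM in YAP1-MAMLD1-dR3R1, 134, 128 and 174 CPM in YAP1-FAM118B and 105, 111 and 95.1 CPM in YAP1-TFE3 tumours. Its lowest tumour library, of YAP1-TFE3, was far above the highest naive one, and the common log2 fold change was 5.6 ± 0.20 (edgeR adjusted p = 2.48e-07). Hk2, the hexokinase that traps glucose in the cell, measured 4.39, 3.81 and 3.87 CPM in naive, 88.0, 96.5 and 123 CPM in YAP1-MAMLD1-dR3R1, 69.7, 53.2 and 60.8 CPM in YAP1-FAM118B and 230, 230 and 252 CPM in YAP1-TFE3 tumours. The fusions did not overlap either: YAP1-TFE3 was highest and YAP1-FAM118B lowest, around a common log2 fold change of 4.83 ± 0.17 (edgeR adjusted p = 2.48e-07).

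Ezh2, the histone methyltransferase of the Polycomb complex, measured 3.61, 3.69 and 4.27 CPM in naive, 28.0, 31.1 and 32.4 CPM in YAP1-MAMLD1-dR3R1, 16.6, 18.6 and 20.4 CPM in YAP1-FAM118B and 58.6, 56.5 and 57.3 CPM in YAP1-TFE3 tumours. Every tumour library was at least as high as 16.6 CPM, and the common log2 fold change was 3.05 ± 0.12. Grn, the lysosomal growth factor progranulin, rose from 46.9 to 52.5 CPM in naive to 318 to 423 CPM in YAP1-FAM118B, 854 to 965 CPM in YAP1-MAMLD1-dR3R1 and 2290 to 2530 CPM in YAP1-TFE3. Anxa3, a calcium-dependent phospholipid-binding annexin, rose by 5.66 ± 0.18 and Dlgap5, a spindle protein, by 6.02 ± 0.21. Hpgds, the prostaglandin D synthase of blood-derived and microglial cells, rose by 4.14 ± 0.17 with a distance of 3.34 between fusions, the widest of the 10. Sbno2, a transcriptional co-regulator in macrophages, rose by 3.46 ± 0.14, Prr11, a cell cycle gene, by 4.16 ± 0.18 and Ddx39, an RNA helicase of mRNA export, by 2.32 ± 0.11.

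The 10 shared lower genes with the smallest p-values were lowest in YAP1-TFE3 or YAP1-MAMLD1-dR3R1 and nearest to naive in YAP1-FAM118B. Mgst3, a microsomal glutathione transferase, measured 64.9, 59.3 and 52.2 CPM in naive, 9.24, 8.94 and 9 CPM in YAP1-MAMLD1-dR3R1, 44.8, 43.7 and 36 CPM in YAP1-FAM118B and 3.86, 5.90 and 5.43 CPM in YAP1-TFE3 tumours. The YAP1-FAM118B libraries lay between the other tumours and naive without overlap, and the common log2 fold change was -2.25 ± 0.12 (edgeR adjusted p = 1.79e-06). Mgst3 was not shared in 16 of 22 alternative settings, among them the fits without any 1 naive, YAP1-MAMLD1-dR3R1 or YAP1-FAM118B library. Pitpnm1, a phosphatidylinositol transfer protein, had 202, 199 and 201 CPM in naive, then 84.8, 92.5 and 80.6 CPM in YAP1-MAMLD1-dR3R1, 123, 143 and 116 CPM in YAP1-FAM118B and 44.4, 52.6 and 53.7 CPM in YAP1-TFE3 tumours. Lsm11, a subunit of the particle that trims histone mRNA, had a log2 fold change of -1.61 ± 0.12 and Stk16, a kinase of the secretory pathway, of -1.39 ± 0.10. Rusc1, a neuronal adaptor, Pnkd, a gene of a movement disorder, Ank1, an ankyrin of the membrane skeleton, Rhbdl1, a rhomboid protease, and Fam69b had common log2 fold changes of -2.63 to -1.73. Peg3os, an antisense transcript at the imprinted Peg3 locus, had -3.11 ± 0.21, but the sources used here do not give the strand setting of the counting, so its reads and those of the opposite strand cannot be told apart.

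**Figure D3:**
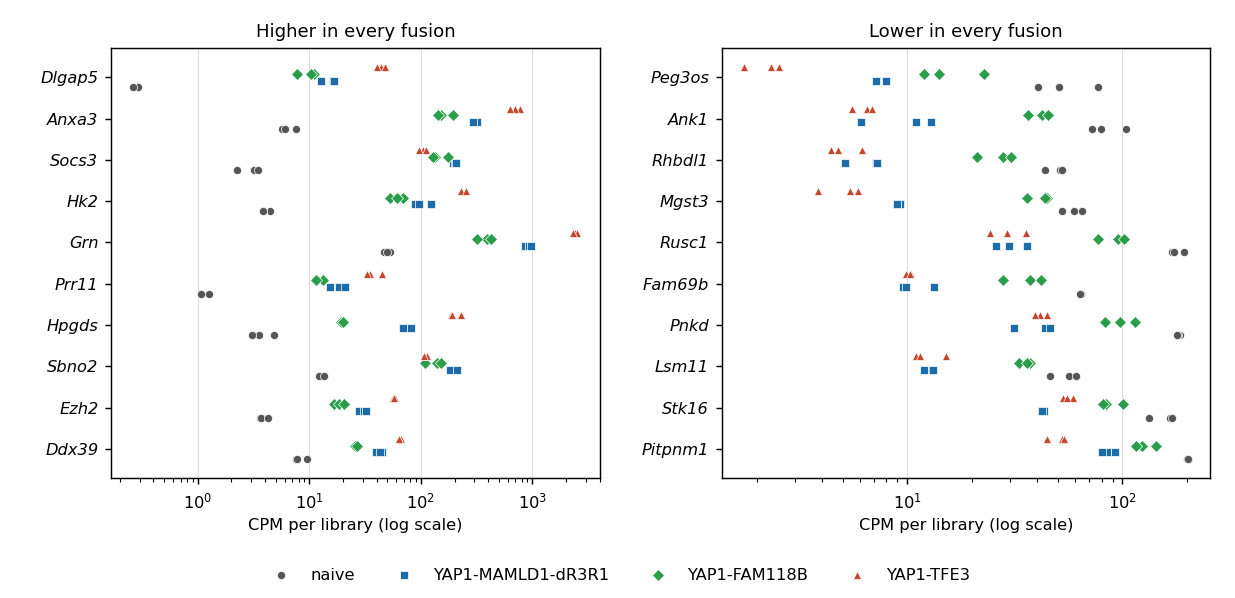
CPM of the 10 shared higher and 10 shared lower genes with the smallest p-values, on a log axis, with 1 symbol per library. All 20 genes were chosen among those whose tumour and naive libraries do not overlap, so the gap between these symbols follows from the choice. YAP1-FAM118B is the tumour group nearest to naive for most of the 20 genes.

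Some genes changed by nearly the same amount in every fusion. They were chosen by the smallest distance between the 3 log2 fold changes among genes with a common change of at least 1, so their evenness is a description and carries no test. Adam9, a membrane-bound metalloprotease that sheds surface proteins, measured 80.9, 72.5 and 71.5 CPM in naive, 253, 162 and 208 CPM in YAP1-MAMLD1-dR3R1, 199, 146 and 285 CPM in YAP1-FAM118B and 210, 256 and 172 CPM in YAP1-TFE3 tumours. The 3 tumour groups overlapped fully, with log2 fold changes of 1.47, 1.49 and 1.51. Itga1, a collagen-binding integrin subunit, measured 6.45, 7.83 and 8.05 CPM in naive and 51.9 to 145 CPM in tumours, with log2 fold changes of 3.73, 3.78 and 3.70. Sdpr, a cavin of the coat of caveolae, had 4.05, 4.11 and 4.11, although its YAP1-MAMLD1-dR3R1 libraries ranged from 78.5 to 307 CPM. Chsy1, a chondroitin synthase, Ostc, a subunit of the oligosaccharyltransferase, Inppl1, an inositol phosphatase, Rpl41, a ribosomal protein, and Zfp516, a zinc finger protein, had common log2 fold changes of 1.12 to 1.86 with distances of 0.06 to 0.09.

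Gaa, the lysosomal acid alpha-glucosidase, fell evenly, with 448, 454 and 599 CPM in naive, 279, 252 and 183 CPM in YAP1-MAMLD1-dR3R1, 235, 308 and 189 CPM in YAP1-FAM118B and 269, 257 and 186 CPM in YAP1-TFE3 tumours. Its common log2 fold change was -1.06 ± 0.18, against the direction of most lysosomal genes described further on. Wdr6, a cofactor of tRNA methylation, had 258 to 403 CPM in naive and 73.0 to 136 CPM in tumours. Cib2, a calcium-binding protein, Dzip1, a protein of the base of cilia, the small GTPase gene Rab36, Ankrd42 and Ubxn2a had common log2 fold changes of -1.36 to -1.04.

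Most TEAD factors and co-factors rose in every fusion, some of them by sizes that differed between fusions. Of 8 tested genes of TEAD factors and co-factors, 7 were shared higher (87.5%, against 18.6% of all genes tested) and none lower. The median log2 fold change was 2.92 in the common contrast, with 2.98, 2.56 and 2.95 in YAP1-MAMLD1-dR3R1, then YAP1-FAM118B and YAP1-TFE3. The test over the tumour groups called 4 of the 7, and 67.3% of all shared higher genes. Tead1 had log2 fold changes of 2.31, 2.45 and 4.12 in YAP1-MAMLD1-dR3R1, then YAP1-FAM118B and YAP1-TFE3. Tead4 rose from 0.164 to 1.01 CPM in naive to 0.798 to 58.6 CPM in tumours, ranges that overlap, and differed between fusions by 4.24 on the log2 scale. It was not shared without naive replicate 1 or 3, YAP1-MAMLD1-dR3R1 replicate 1 or YAP1-FAM118B replicate 3, nor with a replicate block. Wwtr1, which encodes TAZ, the paralogue of YAP1, rose by 2.64 ± 0.24 (edgeR adjusted p = 1.7e-05), and the co-factors Vgll3 and Vgll4, of which Vgll4 competes with YAP1 for TEAD, rose by 4.31 ± 0.35 and 1.73 ± 0.17.

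Of 24 YAP/TEAD target genes, 18 were higher and 3 lower in the common contrast, with a median of 2.05. Shared higher were 14 (58.3%) and none was shared lower. The shares of all genes tested were 36.1% higher, 30.6% lower and 18.6% shared higher. The test over the tumour groups called 9 of these 14, a share near the 67.3% of all shared higher genes. Amotl2, an angiomotin that feeds back on YAP1, measured 20, 24.4 and 34.7 CPM in naive, 464, 311 and 443 CPM in YAP1-MAMLD1-dR3R1, 283, 226 and 393 CPM in YAP1-FAM118B and 661, 514 and 541 CPM in YAP1-TFE3 tumours. All tumour libraries were at 226 CPM or above and all naive ones at 34.7 CPM or below, and the common log2 fold change was 3.97 ± 0.28 (edgeR adjusted p = 4.87e-06). Axl, a receptor tyrosine kinase, rose from 53.1 to 61.0 CPM to 208 to 1060 CPM, and Ankrd1, a cardiac ankyrin repeat protein widely used as a readout of YAP1, from 0.126 to 0.657 CPM to 64.0 to 909 CPM. Igfbp3, an insulin-like growth factor binding protein, rose by 4 ± 0.34. Ajuba, a LIM protein that binds LATS kinases, and Ptpn14, a phosphatase that binds YAP1, had log2 fold changes of 6.49 and 5.74 in YAP1-TFE3 and of 1.86 to 3.55 in the other fusions. The textbook targets Ctgf and Cyr61, named here outside the rule, rose by 4.72 ± 0.94 and 4.53 ± 0.52 and were shared. Asap1, an Arf regulator, and Fjx1, a kinase of the Golgi, went the other way in the common contrast, with -0.56 ± 0.16 and -0.97 ± 0.29, and the count of lower targets was 1 without naive replicate 1 and 1 without naive replicate 2.

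The promoters of the 2 shared targets with the smallest p-values that hold the TEAD core are shown because both genes rose in every fusion and hold the letters TEAD factors bind. They run from 250 bases before to 50 after the start site in the RefSeq annotation of GRCm38.p6 (Amotl2 at chr9:102717554-102717853, plus strand; Axl at chr7:25788684-25788983, minus strand), 5′ to 3′ on the strand of the gene, with the core GGAATG or its reverse complement in capitals.
Amotl2: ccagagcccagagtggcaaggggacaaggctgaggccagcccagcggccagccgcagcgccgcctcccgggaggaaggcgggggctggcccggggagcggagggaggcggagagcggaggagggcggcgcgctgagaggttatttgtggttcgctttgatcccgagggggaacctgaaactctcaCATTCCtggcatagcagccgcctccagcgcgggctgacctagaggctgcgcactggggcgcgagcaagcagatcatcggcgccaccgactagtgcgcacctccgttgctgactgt
Axl: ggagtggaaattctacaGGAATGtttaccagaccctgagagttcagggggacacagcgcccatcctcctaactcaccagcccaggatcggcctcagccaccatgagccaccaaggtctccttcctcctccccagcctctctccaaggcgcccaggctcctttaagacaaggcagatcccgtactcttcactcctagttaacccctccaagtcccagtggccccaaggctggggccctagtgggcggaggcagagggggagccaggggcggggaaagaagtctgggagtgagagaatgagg
The core begins 65 bases before the start of Amotl2 and 233 bases before that of Axl. At least 1 core, on either strand, was found in 8 of 20 promoters of the YAP/TEAD targets (40.0%), in 14.1% of the promoters of shared higher genes, in 9.8% of shared lower genes and in 12.7% of the 16273 promoters of all genes tested that matched the table. A match is a description of the letters and shows no binding.

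Of 17 Hippo kinases and regulators, 12 were higher and 2 lower in the common contrast, and 5 were shared higher (29.4%). Over all genes tested, 36.1% were higher, 30.6% lower and 18.6% shared higher. All 5 were called in the test over the tumour groups, as were 67.3% of all shared higher genes. Stk3, the kinase that starts the cascade, rose by 1.09 ± 0.12, Sav1, its scaffold, by 1.71 ± 0.22, Mob1a, the activator of LATS kinases, by 2.58 ± 0.26 and Map4k4, a parallel kinase, by 1.05 ± 0.17. Frmd6, an upstream activator, was not shared in 19 of 22 alternative settings, other scalings and DESeq2 included, and had 2.22, 1.74 and 0.83 in YAP1-MAMLD1-dR3R1, then YAP1-FAM118B and YAP1-TFE3. Taok1, a kinase upstream of Stk3, and Dchs1, a cadherin upstream of the pathway, were lower, with -0.42 ± 0.11 and -0.55 ± 0.19. The shared count was 3 without naive replicate 1, 2 without naive replicate 2 and 3 without YAP1-FAM118B replicate 1 or replicate 3.

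Cell division was the most complete of the shared programmes by count. All 25 tested genes of mitosis and the spindle were shared higher and all 25 differed between fusions, with median log2 fold changes of 4.55 for YAP1-MAMLD1-dR3R1, 3.75 for YAP1-FAM118B and 5.77 for YAP1-TFE3. Of 24 DNA replication genes, 23 were shared higher (95.8%) and all 24 rose in the common contrast, with a median of 3.09. Among all genes tested, 18.6% were shared higher and 36.1% were higher in the common contrast. Top2a, the topoisomerase that untangles chromosomes, measured 3.37, 3.85 and 2.11 CPM in naive, 105, 188 and 181 CPM in YAP1-MAMLD1-dR3R1, 74.3, 78.8 and 71.5 CPM in YAP1-FAM118B and 305, 371 and 390 CPM in YAP1-TFE3 tumours. Bub1, a kinase of the spindle checkpoint, measured 0.287, 0.0838 and 0.264 CPM in naive, 15.3, 14.9 and 20.1 CPM in YAP1-MAMLD1-dR3R1, 14.7, 13.6 and 12.9 CPM in YAP1-FAM118B and 46.7, 47.8 and 56.8 CPM in YAP1-TFE3 tumours. Both were highest in YAP1-TFE3 and did not overlap with naive, with common log2 fold changes of 5.69 ± 0.29 and 6.71 ± 0.32 (edgeR adjusted p = 1.58e-06 and 1.15e-06).

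Cdk1, the kinase that starts mitosis, had 6.40, 5.88 and 8.36 in the order used above, and Cdc20, an activator of the anaphase complex, 4.76, 4.11 and 6.65. Aurkb, Bub1b and Tpx2, which act on the spindle and its checkpoint, rose by 5 ± 0.24, 5.85 ± 0.28 and 4.14 ± 0.20. Among replication genes, Mcm2 and Mcm3, subunits of the replicative helicase, rose by 3.27 ± 0.20 and 4.14 ± 0.23, Tk1, thymidine kinase, by 6.28 ± 0.35 and Pole, a replicative polymerase, by 4.09 ± 0.23. Rrm2, a subunit of ribonucleotide reductase, spread widely, with 4.04, 3.13 and 7.85. Of 20 G1 cyclins, kinases and inhibitors, 12 were shared higher (60%, against 18.6% of all genes tested) and none shared lower. Both sides of the brake rose: the kinases Cdk2 (4.12 ± 0.26) and Cdk4 (2.21 ± 0.14), and the inhibitors Cdkn2b (4.86 ± 0.26) and Cdkn2c (4.07 ± 0.26). Ccnd1, cyclin D1, rose from 65.5 to 69.8 CPM to 149 to 3790 CPM, with 3.72, 1.34 and 5.69 in the 3 fusions, while the inhibitor Cdkn2d had -0.41 ± 0.14.

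Genes of the p53 response rose in part, with 7 of 16 shared higher (43.8%, against 18.6% of all genes tested) and none shared lower. Cdkn1a, the inhibitor p21, rose by 2.73 ± 0.32, Bax, a pore-forming death protein, by 1.34 ± 0.15, Fas, a death receptor, by 3.64 ± 0.25 and Eda2r by 5.30 ± 0.52. Gdf15, a stress cytokine, had 3.70, 4.37 and 9.94. Plk2 and Zmat3, which also belong to this response, were lower in the common contrast, with -0.93 ± 0.23 and -0.65 ± 0.20. Of 16 genes of chromatin and DNA methylation, 9 were shared higher (56.2%, against the same 18.6%). Beside Ezh2 these included Uhrf1, which maintains DNA methylation (4.89 ± 0.30), and Hells, a chromatin remodeller (2.85 ± 0.32). Hmgb2, a DNA-bending protein (3.77 ± 0.25), and Hmga2, a chromatin protein of embryonic tissue (6.41 ± 0.95), were also among them.

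The promoters of Top2a and Bub1 are shown because both genes are shared mitosis genes with p-values among the smallest of those with a match. Bub1b, also chosen by this rule, is not shown. Both promoters come from the same RefSeq table (Top2a at chr11:99024140-99024439, minus strand; Bub1 at chr2:127831810-127832109, minus strand). Capitals mark TTTGAA, the core of the cell cycle homology region, or its reverse complement in Top2a, and CCAAT, the box of the factor NF-Y, or its reverse complement in Bub1. Only 1 motif is marked in each, and Top2a also holds CCAAT or its reverse complement in small letters.
Top2a: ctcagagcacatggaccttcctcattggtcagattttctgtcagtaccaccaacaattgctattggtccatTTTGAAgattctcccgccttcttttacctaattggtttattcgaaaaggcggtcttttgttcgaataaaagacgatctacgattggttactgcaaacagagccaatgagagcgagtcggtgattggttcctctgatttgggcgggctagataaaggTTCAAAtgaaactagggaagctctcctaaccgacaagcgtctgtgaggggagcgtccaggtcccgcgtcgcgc
Bub1: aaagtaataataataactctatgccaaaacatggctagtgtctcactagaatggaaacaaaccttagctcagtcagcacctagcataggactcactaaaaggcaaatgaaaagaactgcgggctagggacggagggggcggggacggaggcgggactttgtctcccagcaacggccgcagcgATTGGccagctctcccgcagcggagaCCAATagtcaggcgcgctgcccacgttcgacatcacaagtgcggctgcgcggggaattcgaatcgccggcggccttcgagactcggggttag
The matches begin 179 and 23 bases before the start of Top2a and 68 and 42 bases before that of Bub1. TTTGAA was present in 15 of 21 promoters of the mitosis list (71.4%) and in 3 of 22 of the replication list (13.6%), against 12.4% of all promoters. CCAAT was present in 85.7% of the mitosis promoters and 63.6% of the replication promoters, against 37.1% of all.

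Ribosomal protein genes rose in every fusion by similar medians, although 18 of the 23 shared ones were called in the test over the tumour groups. Of 24 cytosolic ribosomal proteins, 23 were shared higher (95.8%, against 18.6% of all genes tested) and none lower. The medians were 1.86, 1.46 and 1.19 in YAP1-MAMLD1-dR3R1, then YAP1-FAM118B and YAP1-TFE3. The order is the reverse of the mitosis list for YAP1-TFE3, which was lowest here and highest there. Rps2 measured 176, 189 and 166 CPM in naive, 606, 527 and 598 CPM in YAP1-MAMLD1-dR3R1, 567, 450 and 659 CPM in YAP1-FAM118B and 579, 498 and 506 CPM in YAP1-TFE3 tumours. The tumour groups overlapped and none reached down to naive, with a common log2 fold change of 1.65 ± 0.14. Rplp0, of the ribosomal stalk, rose by 2.71 ± 0.22, Rpl23 by 1.76 ± 0.15, Rpl27 by 1.5 ± 0.13, and Rps9 and Rps24 had distances of 1.18 and 0.94 between fusions. Ribosomal protein genes have many processed pseudogenes, and the sources used here do not say how reads that fit several copies were counted.

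Oxidative phosphorylation genes differed between fusions. None of the 24 oxidative phosphorylation genes was shared, and the test over the tumour groups called all 24. It called 61.8% of all genes tested. In YAP1-MAMLD1-dR3R1, 22 were lower and none higher, where 34.4% of all genes tested were higher and 28.8% lower. In YAP1-FAM118B, 8 were lower and none higher, where 21.3% were higher and 8.45% lower over all genes. In YAP1-TFE3, 19 were higher and none lower, where 40.6% were higher and 30% lower over all genes. Cox5a, a subunit of cytochrome oxidase, measured 137, 148 and 143 CPM in naive, 87.1, 89.3 and 80.7 CPM in YAP1-MAMLD1-dR3R1, 123, 118 and 124 CPM in YAP1-FAM118B and 550, 470 and 571 CPM in YAP1-TFE3 tumours. The 4 groups did not overlap, and the common log2 fold change of 0.31 ± 0.09 averages -0.74, -0.23 and 1.89. Without YAP1-MAMLD1-dR3R1 replicate 3, 2 genes of this list were shared lower, and 1 was so without YAP1-MAMLD1-dR3R1 replicate 2 or YAP1-TFE3 replicate 2 or 3.

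Cholesterol synthesis was likewise without a shared gene among 19, with 14 lower in YAP1-MAMLD1-dR3R1, 10 lower in YAP1-FAM118B, and 7 higher and 1 lower in YAP1-TFE3. Dhcr7, the last enzyme of the pathway, had -0.45, -0.61 and 2.61. Without YAP1-TFE3 replicate 2, 3 genes of this list were shared lower. Glycolysis and hypoxia genes also differed between fusions. The test over the tumour groups called 21 of 25, and 61.8% of all genes tested. In YAP1-MAMLD1-dR3R1, 9 were higher and 11 lower, with a median of -0.47. In YAP1-FAM118B, 9 were higher and 1 lower (0.71), and in YAP1-TFE3, 21 were higher and 1 lower (1.37). Among all genes tested, 34.4% were higher and 28.8% lower in YAP1-MAMLD1-dR3R1, 21.3% and 8.45% in YAP1-FAM118B, and 40.6% and 30% in YAP1-TFE3. Of the 25 genes, 7 were shared higher (28%, against 18.6% of all genes tested). Beside Hk2 they included Pfkfb3 and Pfkfb4, which make the activator of glycolysis (1.47 ± 0.14 and 1.71 ± 0.15), P4ha1, which hydroxylates collagen (2.19 ± 0.30), and Adm, the vasodilator adrenomedullin (3.58, 3.90 and 5.57). Aldoc, the brain aldolase, and Hk1, the brain hexokinase, went the other way with -1.15 ± 0.30 and -0.46 ± 0.13, so that Hk1 fell while Hk2 rose. Of 24 lysosomal genes, 16 were shared higher (66.7%) and 1 shared lower (4.17%), with a median of 1.99. The shares of all genes tested were 18.6% and 6.07%. Ctsd, cathepsin D, had 3.53, 1.76 and 4.38, Ctss, the cathepsin of immune cells, 6.62, 3.60 and 4.09, and Ctsl 2.04, 1.75 and 5.32. Naglu, Lamp2 and Cd63 rose by 3.57 ± 0.20, 2.14 ± 0.14 and 3.54 ± 0.24. Atp6v0d1 and Atp6v1h, subunits of the proton pump, were lower with -0.65 ± 0.09 and -0.63 ± 0.11, and Atp6v0d1 was the shared lower member, but not without naive replicate 1 or 2 or YAP1-FAM118B replicate 1 or 3.

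Collagens passed as higher in 19 of 20 cases in YAP1-MAMLD1-dR3R1 and also in YAP1-FAM118B, and in 11 of 20 in YAP1-TFE3. The shares of all genes tested were 34.4%, 21.3% and 40.6% in the same order. Of 20 collagens, 19 were higher in the common contrast and 11 shared (55%). Among all genes tested, 36.1% were higher and 18.6% shared higher. The collagen medians were 5.04, 5.93 and 2.21 in YAP1-MAMLD1-dR3R1, then YAP1-FAM118B and YAP1-TFE3. Collagens thus had their highest median in YAP1-FAM118B and their lowest in YAP1-TFE3. Col5a2, a fibrillar collagen, measured 2.55, 5.49 and 3.87 CPM in naive, 1830, 1500 and 1260 CPM in YAP1-MAMLD1-dR3R1, 1780, 672 and 2790 CPM in YAP1-FAM118B and 146, 77.9 and 57.1 CPM in YAP1-TFE3 tumours. The YAP1-TFE3 libraries lay between naive and the other tumours, and the distance between fusions was 4.22. Col4a1, of basement membranes, rose by 4.78 ± 0.43, Col11a1 by 5.07 ± 0.50, and Col16a1 had 5.56, 5.44 and 1.88.

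Of 24 matrix glycoproteins and cross-linking enzymes, 20 were shared higher (83.3%, against 18.6% of all genes tested). The test over the tumour groups called 5 of these 20, and 67.3% of all shared higher genes. A gene that this test does not call is not shown to be equal between fusions. The summed level of the list spread within groups: 8430 to 15000 CPM in YAP1-MAMLD1-dR3R1, 8080 to 27100 CPM in YAP1-FAM118B and 6550 to 12900 CPM in YAP1-TFE3. Serpinh1, the chaperone of collagen folding, measured 14.4, 15.7 and 21.1 CPM in naive, 604, 575 and 907 CPM in YAP1-MAMLD1-dR3R1, 881, 426 and 1020 CPM in YAP1-FAM118B and 647, 553 and 625 CPM in YAP1-TFE3 tumours. The 3 tumour groups overlapped, and the common log2 fold change was 5.34 ± 0.36 (edgeR adjusted p = 3.95e-06). Lamb1, a laminin chain, rose by 3.17 ± 0.29, P4hb, a protein disulfide isomerase, by 2.47 ± 0.27, and Plod2, which cross-links collagen, by 4.37 ± 0.34. Postn, periostin, had 5.34, 7.47 and 3.73, and Lama4, another laminin chain, 4.64, 4.26 and 2.05. Of 23 matrix proteases and inhibitors, 15 were shared higher (65.2%, against the same 18.6%). Mmp2, a gelatinase, rose from 3.39 to 4.27 CPM to 144 to 1420 CPM. Plaur, the urokinase receptor, rose by 5.47 ± 0.57, Adamts9 by 3.76 ± 0.34 and the inhibitor Timp3 by 2.92 ± 0.28, whereas Timp4 had -0.70 ± 0.18.

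Of 24 integrin and focal adhesion genes, 18 were shared higher (75%, against 18.6% of all genes tested) and none lower. The median was 2.61. Itga5, which pairs to bind fibronectin, rose by 5.03 ± 0.44, Itgb5 by 3.48 ± 0.17, and the actin-associated genes Tagln2 and Tes by 4.42 ± 0.36 and 3.56 ± 0.28. Itga3, a laminin-binding subunit, had 1.38, 2.18 and 4.2, and Pxn, paxillin, 2.79, 2.12 and 3.87. Of 18 mesenchymal transcription factors, 7 were shared higher (38.9%, against 18.6% of all genes tested), and the median of the list was 0.81. Among the 7 were Runx1, Runx3, Snai1 and Foxd3. Runx1, a factor of blood and mesenchymal cells, measured 0.657, 0.419 and 0.132 CPM in naive, 79.2, 72.0 and 68.7 CPM in YAP1-MAMLD1-dR3R1, 73.0, 28.6 and 104 CPM in YAP1-FAM118B and 63.6, 45.1 and 78.8 CPM in YAP1-TFE3 tumours. All 9 tumour libraries were at 28.6 CPM or above with overlap among fusions, and Runx3 had a like pattern with 0 to 0.164 CPM in naive and 9.78 to 45.0 CPM in tumours. Foxd3, a neural crest factor, had no count in naive, 13.6 to 64.4 CPM in YAP1-MAMLD1-dR3R1 and YAP1-FAM118B together and 0 to 1.02 CPM in YAP1-TFE3. Against a floor of 3 counts over the naive group its mean over tumours was at least 483-fold higher, and it was not shared in 10 of 22 alternative settings. The shared count of this list was 4 without naive replicate 1 and 4 without naive replicate 3.

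Signalling genes moved in both directions. Shared higher were 39.1% of receptor kinases and ligands, 31.8% of TGF-beta and BMP genes and 31.6% of NOTCH genes, against 18.6% of all genes tested. Shared lower were 8.7% of receptor kinases and ligands, against 6.07% of all genes tested. Of 23 receptor kinases and ligands, 9 were shared higher and 2 shared lower. Epha2, an ephrin receptor, rose by 5.48 ± 0.38, Pdgfrb, the platelet-derived growth factor receptor of pericytes, by 3.62 ± 0.40, Erbb2 by 3.45 ± 0.41, Fgf2 by 3.09 ± 0.37, and Hbegf, a ligand of the epidermal growth factor receptor, had 2.18, 1.87 and 4.85. Erbb4, the neuregulin receptor of neurons, and Fgf1 were the 2 shared lower members, with -2.15 ± 0.26 and -1.09 ± 0.22, and 0 or 1 remained shared lower without naive replicate 1 or 3, any YAP1-MAMLD1-dR3R1 library or YAP1-FAM118B replicate 1 or 3. Of 22 genes of TGF-beta and BMP signalling, 7 were shared higher: Tgfb1 rose by 4.37 ± 0.44, its receptor Tgfbr2 by 3.87 ± 0.29, the target Tgfbi by 4.88 ± 0.41 and Bmp1, which trims procollagen, by 2.52 ± 0.29, while Bmp4 and Tgfb3 were highest in YAP1-FAM118B with 5 and 4.23, and Bmp4 was not shared in 15 of 22 alternative settings. Nog, an antagonist of BMPs, had 0.75, 0.80 and -4.33. Of 19 NOTCH pathway genes, 6 were shared higher, including the receptors Notch1 (1.59 ± 0.18) and Notch2 (2.24 ± 0.23), the effector Rbpj (1.54 ± 0.19), the co-activator Maml1 (1.35 ± 0.15) and the ligand Jag1 (2.68, 4.24 and 1.06), with Jag1 not shared in 14 of 22 alternative settings, every fit without 1 naive library included, whereas the target Hes5 and the ligand Jag2 were lower with -2.78 ± 0.59 and -1.03 ± 0.30.

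Of 18 AP-1 and immediate early genes, 4 were shared higher, 5 were higher and 8 lower in the common contrast, and the median was -0.16. Over all genes 18.6% were shared higher, 36.1% higher and 30.6% lower. Maff, Atf3 and Ier3, which are among the shared higher genes, rose by 4.68 ± 0.35, 3.87 ± 0.56 and 2.30 ± 0.36. More genes of the list were lower than higher, and its lowest common log2 fold change was -4.37. The summed level of the list was 1800, 1990 and 874 CPM in naive and 664 to 1250 CPM in tumours, so naive replicate 3 lay within the tumours. The count of lower genes was 5 without both libraries with Xist plus Y-linked reads, and 2 genes of the list were shared lower without naive replicate 3.

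Interferon-stimulated and antigen presentation genes rose in every fusion, with the lowest medians in YAP1-FAM118B. Of 22 interferon-stimulated genes, all were higher in the common contrast and 19 shared (86.4%). Among all genes tested, 36.1% were higher and 18.6% shared higher. The medians of the interferon list were 5.45, 3.14 and 4.40 in YAP1-MAMLD1-dR3R1, then YAP1-FAM118B and YAP1-TFE3. The shared count of this list was 12 without naive replicate 1 and 8 without both libraries with Xist plus Y-linked reads. Of 18 antigen presentation genes, 17 were shared (94.4%), with a median of 5.68. Bst2, tetherin, an interferon-induced protein that holds virus at the cell surface, measured 3.04, 3.64 and 6.20 CPM in naive, 163, 343 and 339 CPM in YAP1-MAMLD1-dR3R1, 80.9, 67.8 and 46.9 CPM in YAP1-FAM118B and 913, 732 and 1010 CPM in YAP1-TFE3 tumours. B2m, the light chain of MHC class I, measured 42.2, 45.0 and 47.0 CPM in naive, 1410, 3710 and 3720 CPM in YAP1-MAMLD1-dR3R1, 674, 538 and 506 CPM in YAP1-FAM118B and 1390, 1430 and 2570 CPM in YAP1-TFE3 tumours. For both genes every tumour library was above naive and YAP1-FAM118B was the lowest tumour group, with common log2 fold changes of 5.88 ± 0.41 and 5.02 ± 0.41 (edgeR adjusted p = 4.65e-06 and 1.06e-05).

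Among the rest of the interferon list, Isg15, a ubiquitin-like protein, rose by 4.61 ± 0.65, Ifitm3, which blocks virus entry, by 4.27 ± 0.42, the chemokine Cxcl10 by 8.87 ± 1.09, and Rsad2, viperin, had 4.81, 3 and 7.65. H2-K1 and H2-D1, the heavy chains of MHC class I, rose by 5.84 ± 0.57 and 5.11 ± 0.53, Tapbp, which loads peptide, by 3.15 ± 0.30, and Nlrc5, the activator of class I genes, had 8.07, 4.97 and 7.35. Reads of near-identical MHC class I genes may be split or dropped by the counting, so the values of single H2 genes are uncertain.

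The promoters of Bst2 and B2m are shown because both carry the interferon element GAAANNGAA and both rose in every fusion. They come from the same RefSeq table (Bst2 at chr8:71537423-71537722, minus strand; B2m at chr2:122147437-122147736, plus strand), with the element in capitals.
Bst2: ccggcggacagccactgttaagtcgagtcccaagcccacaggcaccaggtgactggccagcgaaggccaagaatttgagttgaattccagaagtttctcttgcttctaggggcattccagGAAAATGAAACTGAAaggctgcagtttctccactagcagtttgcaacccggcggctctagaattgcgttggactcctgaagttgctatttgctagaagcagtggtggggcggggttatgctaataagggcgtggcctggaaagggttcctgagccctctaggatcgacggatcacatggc
B2m: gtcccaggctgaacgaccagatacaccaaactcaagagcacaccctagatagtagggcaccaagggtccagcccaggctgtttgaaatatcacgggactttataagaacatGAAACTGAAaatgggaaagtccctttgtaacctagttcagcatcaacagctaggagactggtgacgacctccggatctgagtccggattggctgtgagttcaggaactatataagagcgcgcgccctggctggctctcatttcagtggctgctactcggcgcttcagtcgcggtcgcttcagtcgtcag
In Bst2 a pair of overlapping matches begins 130 and 124 bases before the start, and in B2m 1 match begins 139 bases before it. The element was present in 12 of 21 promoters of the interferon list (57.1%), in 3 of 15 of the antigen presentation list, in 9.65% of the promoters of shared higher genes and in 7.27% of all.

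Of 22 chemokines and receptors, 18 were shared higher (81.8%, against 18.6% of all genes tested), with the highest median of the lists, 6.80. Cxcl13 rose from 0 to 0.572 CPM in naive to 115 to 1750 CPM in tumours, Ccl12 by 7.20 ± 0.75 and Cxcl16 by 6.65 ± 0.48. Ccl2, which draws monocytes, had 2 counts in the whole naive group and 8.54 to 55.9 CPM in tumours, 1050 times as much, with counting error alone allowing 291 to 8690 (95%). Cx3cl1, the fractalkine of neurons, and Cxcl14 went the other way with -1.74 ± 0.23 and -1.06 ± 0.27. Of 17 complement genes, 13 were shared higher (76.5%, against the same 18.6%). C1qa and C1qc, subunits of the starter complex, rose by 4.64 ± 0.41 and 4.95 ± 0.45. C3ar1 rose by 6.47 ± 0.57 and Itgb2, of the complement receptor, by 5.16 ± 0.36, while C3 had 9.71, 6.09 and 6.84. Of 17 genes of immune checkpoints and suppression, 12 were shared higher (70.6%). Among them were Arg1, arginase, with 0.164 to 0.220 CPM in naive and 21.0 to 1290 CPM in tumours, and Havcr2 (4.15 ± 0.43). Lgals9 (4.62 ± 0.34) and Lag3, with 5.27, 2.91 and 2.23, were also shared.

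**Figure D4:**
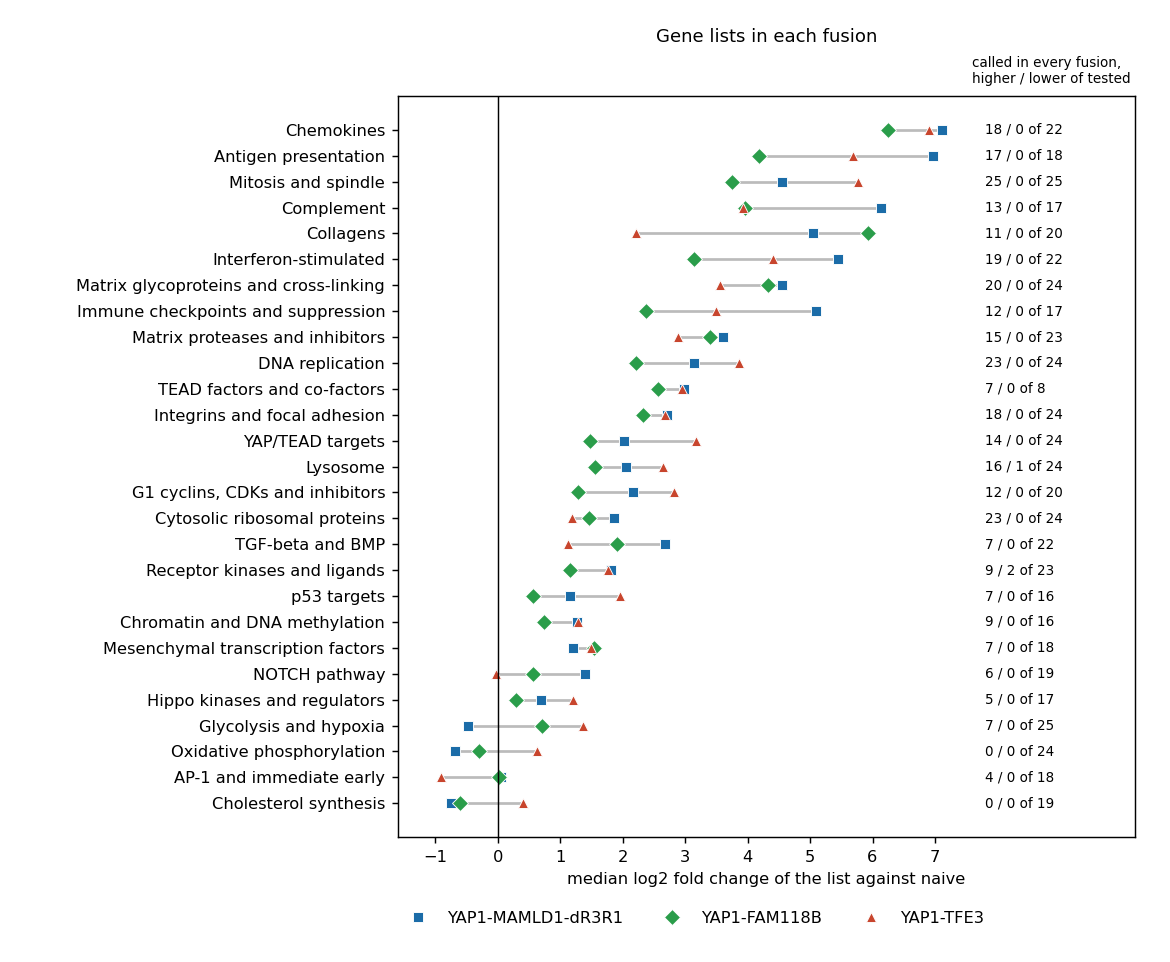
Median log2 fold change of each programme list against naive in each of the 3 fusions, with the number of members called higher and lower in every fusion at the right. Symbols of the oxidative phosphorylation, cholesterol, glycolysis and hypoxia, and AP-1 lists lie on both sides of 0. So do those of the NOTCH list, with YAP1-TFE3 at -0.02. Chemokines, antigen presentation and mitosis lie far to the right in every fusion.

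Markers of immune cells moved with these lists. The summed level of 14 microglia markers was 340 to 418 CPM in naive, 5660 to 9530 CPM in YAP1-MAMLD1-dR3R1, 1920 to 2200 CPM in YAP1-FAM118B and 1400 to 4020 CPM in YAP1-TFE3. The sum of 15 monocyte and macrophage markers was 68.8 to 111 CPM in naive and 1950 to 6570 CPM in tumours. Shared higher were 9 of 14 microglia (64.3%) and 12 of 15 macrophage markers (80%), against 18.6% of all genes tested. Lyz2, the lysozyme of macrophages, measured 5.87, 7.67 and 7.79 CPM in naive, 2670, 964 and 951 CPM in YAP1-MAMLD1-dR3R1, 715, 176 and 803 CPM in YAP1-FAM118B and 1380, 1230 and 1260 CPM in YAP1-TFE3 tumours. No microglia marker was without a count in any group, and 1 macrophage marker was without a count in naive. Trem2, a lipid receptor of microglia, had 5.09, 2.09 and 2.77, Cx3cr1, the fractalkine receptor, 4.56, 2.07 and 2.76, and Olfml3 and Tyrobp rose by 3.53 ± 0.47 and 4.33 ± 0.35. Cd14 and Itgal rose by 5.04 ± 0.46 and 5.39 ± 0.77, and Ms4a7 had 7.31, 7.26 and 3.50. In bulk tissue, more cells of a type and more RNA per cell cannot be told apart, nor can fewer cells and less RNA, and the part of these cells in the rises of lysosomal, interferon, antigen presentation, chemokine and complement genes was not tested.

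Lymphocyte and granulocyte markers were low and varied within groups. T and NK cell markers summed to 11.8 to 15.9 CPM in naive, and then to 32.5, 206 and 162 CPM in YAP1-MAMLD1-dR3R1, to 25.4 to 41.4 CPM in YAP1-FAM118B and to 18.3, 17.9 and 81.4 CPM in YAP1-TFE3. Of 14 such markers 10 were higher in the common contrast, and 5 without naive replicate 1, where 36.1% of all genes tested were higher. Only 1 was shared (7.14%, against 18.6% of all genes tested). This was Gzmb, granzyme B, with no count in naive and 0.231 to 4.35 CPM in tumours. It was not shared without naive replicate 1 or YAP1-FAM118B replicate 1. DESeq2 called 5 of the 14 shared. B cell markers summed to 0.616 to 1.13 CPM in naive and 1.85 to 118 CPM in tumours, and none was shared. Of 5 tested neutrophil markers 3 were shared (60%, against the same 18.6%), namely Csf3r, Cxcr2 and Retnlg. None was shared without both libraries with Xist plus Y-linked reads, and 1 without any 1 naive library, YAP1-FAM118B replicate 1 or YAP1-TFE3 replicate 3.

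The shared part of the vascular and stromal markers differed between lists. Of 15 endothelial markers, 9 were higher and 2 lower in the common contrast, and Pecam1 (1.32 ± 0.24) and Plvap (2.38 ± 0.40), a protein of leaky capillaries, were shared, a smaller share than the 18.6% of all genes. Neither was shared without naive replicate 1 or YAP1-FAM118B replicate 1. Pecam1 was not shared without naive replicate 2 or YAP1-FAM118B replicate 2, and Plvap was not without naive replicate 3 or YAP1-FAM118B replicate 3. The barrier genes Slco1a4 and Ocln were lower, with -1.35 ± 0.29 and -0.95 ± 0.24. Of 12 pericyte and smooth muscle markers, 4 were shared higher, a larger share (33.3%) than the 18.6% of all genes. That count was 2 without naive replicate 1, YAP1-MAMLD1-dR3R1 replicate 3 or YAP1-TFE3 replicate 1. The 4 markers include Acta2, smooth muscle actin (4.32, 5 and 8.03), Des, desmin (2.31 ± 0.60), and Cspg4 (1.95 ± 0.30). Cspg4 also marks oligodendrocyte precursors and was not shared in 9 of 22 alternative settings. The summed level of 13 fibroblast and meningeal markers was 618 to 1240 CPM in naive, 4140 to 5740 CPM in YAP1-MAMLD1-dR3R1, 3720 to 18300 CPM in YAP1-FAM118B and 1090 to 2930 CPM in YAP1-TFE3, which overlapped with naive. Of these, 3 were higher and 3 lower in the common contrast. Only 1 was shared, Col1a2 (6.59, 7.72 and 4.77), which is 7.69% against 18.6% of all genes. The meningeal transporters Slc22a6 and Slc47a1 were lower with -4.28 ± 0.60 and -2.14 ± 0.55. The part of vascular and stromal cells in the rise of matrix genes was not tested.

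**Figure D5:**
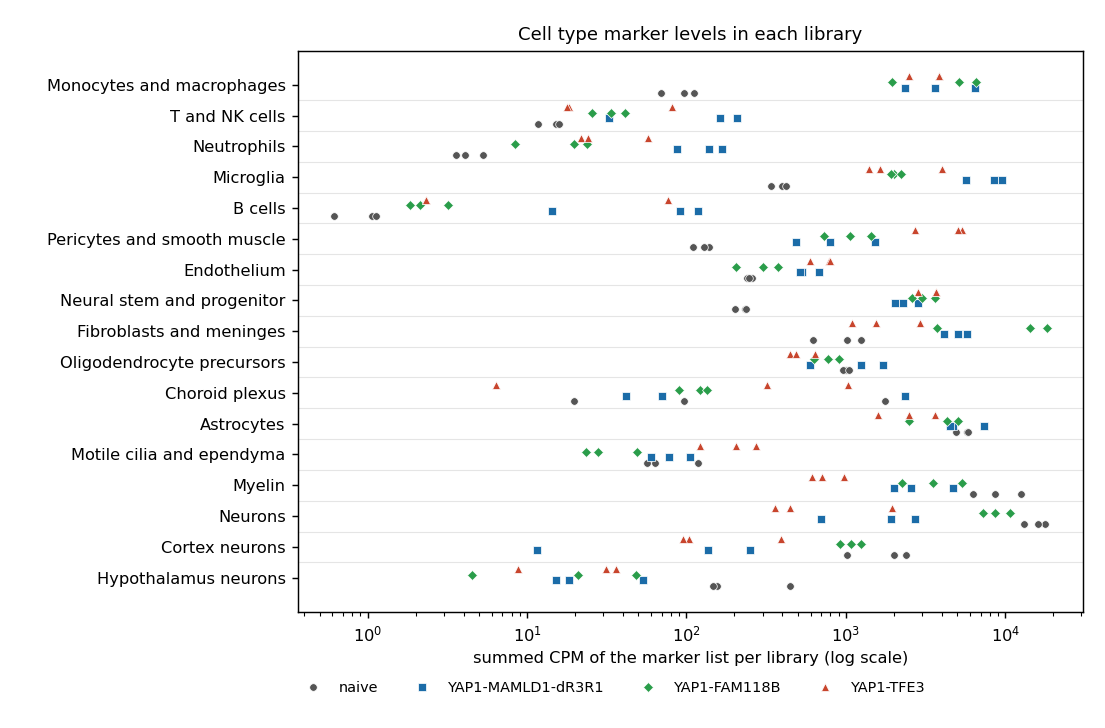
Summed CPM of each cell type marker list in each library, on a log axis. Macrophage and microglia sums of all tumour libraries lie above naive, neuron and myelin sums lie below naive, and choroid plexus sums spread widely within every group but YAP1-FAM118B.

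Neural stem cell markers did not rise as a group: 2 of 12 were shared higher (16.7%, near the 18.6% of all genes tested), and the median was 0.52. The 2 were the intermediate filament genes Vim and Nes. Vim measured 30.7, 38.9 and 39.7 CPM in naive, 2380, 1500 and 1730 CPM in YAP1-MAMLD1-dR3R1, 2630, 2040 and 3340 CPM in YAP1-FAM118B and 3080, 3020 and 2360 CPM in YAP1-TFE3 tumours. The tumour groups overlapped, with a common log2 fold change of 6.05 ± 0.29 (edgeR adjusted p = 1.15e-06). Nes measured 10.5 to 15.2 CPM in naive, 168 to 228 CPM in YAP1-MAMLD1-dR3R1 and YAP1-FAM118B together and 58.7 to 69.9 CPM in YAP1-TFE3. Vimentin and nestin are also made by vascular and mesenchymal cells. Dcx, of migrating neuroblasts, and Hes5 were lower, and the count of higher genes was 5 without YAP1-FAM118B replicate 3. None of the 12 astrocyte markers was shared, with Gfap at 3.80, 1.39 and 0.87 and Aldh1l1 at 0.21, -0.12 and 3.66. Of 15 motile cilia genes, 1 was shared lower (6.67%, near the 6.07% of all genes tested), Dnah5 (-2.42 ± 0.42). Dnah5 was not shared without naive replicate 1 or 3 or YAP1-FAM118B replicate 1 or 3. Foxj1, the master regulator of motile cilia, had 1.78, -0.64 and 4.04.

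Neuronal and myelin genes fell in the common contrast, but most of them were not called in every fusion. Shared lower were 10% of the neuron and 16.7% of the myelin genes, against 6.07% of all genes tested. Of 20 neuron markers, 19 were lower in the common contrast and 2 shared, Map2 and Slc17a6, with medians of -3.40, -0.82 and -4.64 in YAP1-MAMLD1-dR3R1, then YAP1-FAM118B and YAP1-TFE3. Slc17a6, the vesicular glutamate transporter of subcortical neurons, measured 58.5, 58.3 and 281 CPM in naive, 7.46, 5.61 and 2.31 CPM in YAP1-MAMLD1-dR3R1, 20.5, 20.7 and 36.2 CPM in YAP1-FAM118B and 0.820, 2.62 and 0.882 CPM in YAP1-TFE3 tumours. Naive replicate 3 stood apart from the other naive libraries, and no tumour library reached the lowest naive one. Map2, of dendrites, measured 853, 789 and 716 CPM in naive, 212, 192 and 200 CPM in YAP1-MAMLD1-dR3R1, 350, 565 and 251 CPM in YAP1-FAM118B and 62.5, 127 and 60.0 CPM in YAP1-TFE3 tumours. The shared count of neuron markers was 0 without naive replicate 3, YAP1-MAMLD1-dR3R1 replicate 2 or YAP1-FAM118B replicate 1 or 3, and 1 without naive replicate 1 or 2, YAP1-MAMLD1-dR3R1 replicate 1 or 3, YAP1-FAM118B replicate 2 or YAP1-TFE3 replicate 1.

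Of 12 myelin genes, all 12 were lower in the common contrast and 2 were shared, among them Opalin, a membrane protein of oligodendrocytes. Opalin fell from 21.6 to 35.7 CPM to 0.557 to 11.0 CPM. The shared count was 0 without naive replicate 1 or 3 or YAP1-FAM118B replicate 3, and 1 without naive replicate 2, YAP1-MAMLD1-dR3R1 replicate 2, YAP1-FAM118B replicate 1 or YAP1-TFE3 replicate 1 or 2. Neu4, a sialidase of the oligodendrocyte lineage, was shared lower with -1.40 ± 0.32 and lost that call without any 1 naive library, YAP1-MAMLD1-dR3R1 replicate 1 or 3 or YAP1-FAM118B replicate 1 or 3.

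The list with the most shared lower members was that of hypothalamic neurons, with 7 of 12 tested, although the controls are labelled cortex. That is 58.3% of the list, against 6.07% of all genes tested. The summed level of the list was 156, 146 and 447 CPM in naive, 15.1 to 53.7 CPM in YAP1-MAMLD1-dR3R1, 4.52 to 48.4 CPM in YAP1-FAM118B and 8.78 to 36.2 CPM in YAP1-TFE3. Pmch, the precursor of melanin-concentrating hormone, had 12 to 147 CPM in naive and 0.466 to 8.87 CPM in tumours, and Pomc, the precursor of melanocortins, 7.79 to 16.4 CPM and 0.369 to 2.94 CPM. Nr5a1, a factor of the ventromedial nucleus, had -5.76 ± 0.66 and Irs4, which relays insulin receptor signals, -5.66 ± 0.89. The markers of cortex neurons, which define the labelled tissue, summed to 2390, 2000 and 1010 CPM in naive. In tumours they summed to 11.6 to 252 CPM in YAP1-MAMLD1-dR3R1, 923 to 1240 CPM in YAP1-FAM118B and 94.8 to 391 CPM in YAP1-TFE3. None of 10 was shared, though 9 were lower in the common contrast and 4 without naive replicate 1. The shared hypothalamic count was 4 without YAP1-FAM118B replicate 1 or replicate 3. Choroid plexus markers summed to 19.7, 96.3 and 1770 CPM in the naive libraries, so naive replicate 3 held more of this tissue's transcripts than the others. The part of the site of dissection in the fall of hypothalamic genes was not tested.

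Opposite responses were rare. Of all genes tested, 456 (2.79%) were called in opposite directions in 2 fusions against naive, and 55 of them were still called in the common contrast. Sfrp1, a secreted WNT antagonist, measured 18.4, 15.9 and 11.8 CPM in naive, 852, 585 and 1010 CPM in YAP1-MAMLD1-dR3R1, 224, 248 and 327 CPM in YAP1-FAM118B and 3.13, 5.05 and 1.72 CPM in YAP1-TFE3 tumours. It passed as higher in the common contrast (2.54 ± 0.34, edgeR adjusted p = 0.000125) although it fell in YAP1-TFE3. Osr1, a factor of embryonic mesoderm, had 13.7 to 52.9 CPM in YAP1-MAMLD1-dR3R1 and YAP1-FAM118B, 2.05 to 2.85 CPM in naive and 0 to 0.133 CPM in YAP1-TFE3, and did not pass in the common contrast (0.91 ± 0.49, edgeR adjusted p = 0.125).

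Shared genes also differed from other genes in properties that the tests did not use. The median locus length was 19084 bases for shared higher, 31578 for shared lower and 23052 for all genes tested with a position, and loci over 100 kb made up 8.43%, 19.6% and 14.2%. The AP-1 element TGANTCA, searched on both strands, was present in 7.34% of the promoters of shared higher genes, 4.71% of shared lower genes and 5.57% of all. These shares are descriptions of the sets and no test was made of them.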

How the data were processed

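RNA was sequenced from 9 tumours and 3 naive cortex samples, and the authors deposited 1 table of raw gene counts per sample, made with HTSeq on the mouse build mm10 per the submitters' processing notes. For the aligner, versions, annotation, strand setting and filters the entry is: not given in the sources used here. Reads of overlapping, antisense or near-identical genes may therefore be split or dropped. Of 24421 genes in the files, 4096 had no count in any library and 16364 passed edgeR's filter with a minimum count of 10. Groups were taken from the sample labels. One mean per group was fitted over all 12 libraries with edgeR 4.0.16 (R 4.3.3, limma 3.58.1), with TMM factors and the quasi-likelihood F test. The Benjamini-Hochberg adjustment ran over all genes tested, with a threshold of 0.05. The script was tested on simulated data. The standard error is the absolute log2 fold change divided by the square root of F. CPM use the TMM-scaled library size, and counting intervals (95%, exact) and floors of 3 counts over the group cover counting error only.

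The members and gene lists were chosen with earlier results of these data known. Named genes are Yap1, the 10 shared genes per direction with the smallest p among those with a mean of at least 10 CPM and groups that do not overlap, the 8 per direction among these with the most even change, and 8 genes of opposite direction. From each list come up to 4 shared members by p, up to 2 against the list's majority and up to 2 shared members that differ most between fusions. Sex-linked genes and predicted genes that have a number for a name were left unnamed, beside the library check with Xist and Ddx3y. Some genes that the rule names are not reported here. Lists are described by counts and medians, with no test on a list. Motifs were searched on both strands of RefSeq promoters. Alternatives were upper-quartile or RLE factors, no factors (library size only), DESeq2 1.42.0, other filters, robust dispersion, a test against a 2-fold change, a replicate block, the tumours as 1 group, and leaving out each library or both libraries with Xist plus Y-linked reads.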

Additional observations from a re-analysis of the deposited data

Results flagged for a closer look

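For 8 genes, 2 fusions were called in opposite directions against naive. They were chosen as the genes with the largest distance between fusions, so the distance is a description and a test over the fusions would restate the choice. Log2 fold changes are given for YAP1-MAMLD1-dR3R1, then YAP1-FAM118B and YAP1-TFE3 in this order, and the 3 contrasts share the naive libraries.

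Crabp1, a retinoic acid binding protein, had 4.53, -1.18 and -6.90, a distance of 11.4. Its YAP1-MAMLD1-dR3R1 libraries were uneven, with 26.5, 13.2 and 133 CPM, against 2.07 to 3.12 CPM in naive. Upk3bl, a uroplakin-like gene, had 0.13, -2.26 and 8.35, a distance of 10.6, with 129, 129 and 103 CPM in YAP1-TFE3. Osr1 had 4.24, 3.70 and -5.22, a distance of 9.46. Dio3, which inactivates thyroid hormone, had 5.65, 0.12 and -3.79, a distance of 9.44.

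Colq, the collagen tail of acetylcholinesterase, had -2.23, 0.19 and 7.03, a distance of 9.26. Jsrp1, a protein of the muscle calcium store, had -2.95, -0.42 and 5.23, a distance of 8.19. Sfrp1 had 5.73, 4.12 and -2.21, a distance of 7.95. Npas1, a transcription factor of interneurons, had -2.94, -1.34 and 4.88, a distance of 7.83, with 229 to 313 CPM in YAP1-TFE3 and 6.99 to 11.0 CPM in naive.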

How the results depend on the processing

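Shared lower genes varied more with the processing than shared higher genes, which stayed within 1.5 times of 3046 in every setting but the test against 2-fold. Against a 2-fold change in place of 0, 2791 genes were higher and 2143 lower in the common contrast, 1367 shared higher and 25 shared lower, 12 interferon-stimulated genes shared, and 0 neuron and 0 myelin genes shared. DESeq2 called 1984 shared lower genes, with 6 myelin and 2 oxidative phosphorylation genes. With the tumours as 1 group, 2280 genes were lower and higher genes made up 64.8% of the calls, against 54.1%, and Crabp1 (2.97) and Nog (0.21) changed sign. Npas1 had -0.016 without YAP1-MAMLD1-dR3R1 replicate 1. The shared count of neurons was 1 with library size only, without a filter and with a filter of 1 CPM, and 1 without both libraries with Xist plus Y-linked reads. That of myelin was 1 with library size only, 1 without a filter and 1 with the 1 CPM filter. That of oxidative phosphorylation was 1 with RLE factors, 1 with library size only and 2 with the 1 CPM filter, and that of interferon-stimulated genes was 8 without both libraries with Xist plus Y-linked reads. RLE factors moved the median log2 fold change of all genes from 0.09 to -0.01. Among other named shared genes, the call was lost in 13 of 22 settings for Map2, 14 for Cxcr2, 8 for Slc17a6, Fgf1 and Retnlg, 7 for Rsad2, 6 for Des and Ms4a7, and 5 for Stk3 and Itga3. The cause of these moves was not tested.

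Leaving out 1 library at a time gave 4818 to 5932 higher and 4326 to 5423 lower genes, 2409 to 3147 shared higher and 285 to 1279 shared lower genes, and 1631 to 2799 shared genes that differed between fusions. The shared counts ranged from 25 to 25 for mitosis, 21 to 24 for DNA replication, 10 to 15 for collagens, 12 to 14 for YAP/TEAD targets, 12 to 20 for interferon-stimulated genes, 14 to 17 for antigen presentation, 15 to 19 for chemokines, 8 to 9 for microglia, 10 to 12 for macrophages, 0 to 2 for neurons, 0 to 3 for myelin and 0 to 2 for oxidative phosphorylation.

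Deviations from the group mean correlated at -0.11 to 0.32 between same-numbered libraries of different groups, over 0.1 in 4 of 18 pairs. Between libraries of other numbers they correlated at -0.42 to 0.36. The ranges overlap and do not decide whether the replicate numbers pair the samples. With the replicate number as a block, 5752 genes were higher and 4987 lower, 2961 shared higher and 1031 shared lower, and the shared count of neurons was 1. Genes near the floor of 3 counts in naive, such as Foxd3 and Gzmb, are limited by depth.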
